A study of Mus musculus and Bos taurus with 26 samples.

Results

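A list of 10 transcripts that the oocyte makes and leaves to the embryo was followed through the 2-cell stage of mouse embryos and in 8/16-cell bovine embryos. They are Gdf9, Bmp15, Zp1, Zp2, Zp3, Nlrp5, Oosp1, Mos, Zar1 and Rfpl4. All 10 were among the 27988 genes with mouse values and passed the filter on low values, as did 17336 genes in all. In cattle 7 of the 10 symbols were among 21577 genes, and all 7 passed with 12590 genes in all; ZP1, OOSP1 and RFPL4 had no bovine row under those symbols. Levels are FPKM (fragments per kilobase of transcript, scaled to library size), so that genes can be compared per length.

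The study compared 26 polyA RNA libraries of whole embryos in groups of 2, with the question, set by its title, of whether the histone deacetylases HDAC1 and HDAC2 are needed for activation of the embryo's genome. Mouse zygotes were injected with water, with wild-type (WT) or mutant Hdac1 mRNA, or with WT or mutant Hdac2 mRNA, and collected as late 2-cell embryos 36 h after fertilization. Early 2-cell embryos, at 24 h, were collected for WT and mutant Hdac1 mRNA only. In a pair of late groups, zygotes given mutant Hdac1 mRNA were injected again at the early 2-cell stage, each blastomere receiving water or Kdm5b mRNA. KDM5B removes methyl groups from lysine 4 of histone H3. A further pair was cultured with 50 nM FK228 from the zygote on, or in KSOM medium with DMSO. FK228, also called romidepsin, blocks class I deacetylases, HDAC1 and HDAC2 among them. Bovine embryos were cultured with 50 nM FK228 or in BO-IVC medium with DMSO and collected at 72 h. The labels give neither the mutations nor the strain, and the mutant mRNAs were added to embryos that kept their own Hdac1 and Hdac2 genes. Replicate libraries are not said to come from separate cultures, so the p-values reflect the spread of these libraries alone, and that spread may be technical.

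A growing oocyte stores large amounts of mRNA, stops transcribing before ovulation, and carries the embryo through its first division on that stock. Maternal mRNAs are then deadenylated and degraded while the embryo's own genome is switched on, in mouse mainly at the 2-cell stage and in cattle around the 8/16-cell stage. Of the transcripts listed, Gdf9 and Bmp15 encode secreted TGF-beta family factors that act on the follicle's granulosa cells. Zp1, Zp2 and Zp3 encode the glycoproteins of the zona pellucida, the coat that sperm must cross. Nlrp5, also called Mater, is part of the subcortical maternal complex, Mos is the kinase that holds the egg in metaphase through MAP kinase, Zar1 takes part in storing maternal mRNA, Oosp1 is an oocyte secreted protein, and Rfpl4 is an oocyte protein of the RING finger type.

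Because oocytes store some mRNAs with short tails and lengthen those tails through the cytoplasmic polyadenylation element (CPE), the 3′ untranslated ends of the members were searched for the element, TTTTAT, and for its variant TTTTAAT, on the transcript strand only; neither motif contains the other. Gdf9 held the element 1 time, Bmp15 3 times and Rfpl4 2 times, and the variant stood 1 time in Oosp1 and 2 times in Rfpl4. None of the 3 zona transcripts, and neither Nlrp5, Mos nor Zar1, held either motif. Among 14003 tested genes with an annotated 3′ end (GENCODE M21 on GRCm38), 52.1% held TTTTAT and 27.9% held TTTTAAT. The copies nearest to the transcript end are shown, with the element in capitals.
Gdf9: agtgctgtggTTTTATgtgacggaagaa
Bmp15: tattgactagTTTTATcacattctctct
Oosp1: ctgtccctgcTTTTAATtgtataaaatct
Rfpl4: atgctttcctTTTTATttgctataatat
In Gdf9 the element lay 33 bases from the transcript end, in Oosp1 113, in Rfpl4 135 and in Bmp15 524. The members without a motif have short 3′ ends: 13 bases in Zp3, 34 in Zp1, 49 in Zp2, 109 in Nlrp5, 126 in Mos and 146 in Zar1. Oosp1 has 230 bases, Gdf9 360, Rfpl4 530 and Bmp15 1523, against a median of 937 over the 14003 genes. Only Bmp15 is above that median.

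Promoter windows of 300 bases, from 250 before to 50 after the start (RefSeq, GRCm38.p6), were present for 6 members. They were searched for 4 motifs on both strands: the E-box CANNTG, which the oocyte factor FIGLA binds at zona genes, the NOBOX element TAATTG, the OBOX core GGATTA and the NR5A2 core AAGGTCA. Only the E-box was found, and 72.3% of 32851 windows of this length hold it, against 8% for TAATTG, 7.06% for GGATTA and 4.72% for AAGGTCA. Of the windows of the 6 members, the one of Zp3, the member whose level rose, held 4 E-boxes. The one of Oosp1, an abundant member that fell, held 5. Both are printed because these genes moved in opposite directions in the same embryos; E-boxes are in capitals. The Zp3 window is chr5:135979855-135980154 on the plus strand and the Oosp1 window chr19:11691002-11691301 on the minus strand.
Zp3: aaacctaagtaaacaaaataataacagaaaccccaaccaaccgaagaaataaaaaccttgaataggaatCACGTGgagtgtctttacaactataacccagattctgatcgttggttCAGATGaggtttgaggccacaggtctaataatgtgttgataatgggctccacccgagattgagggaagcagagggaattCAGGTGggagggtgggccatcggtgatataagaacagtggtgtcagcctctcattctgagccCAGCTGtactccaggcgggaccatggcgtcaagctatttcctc
Oosp1: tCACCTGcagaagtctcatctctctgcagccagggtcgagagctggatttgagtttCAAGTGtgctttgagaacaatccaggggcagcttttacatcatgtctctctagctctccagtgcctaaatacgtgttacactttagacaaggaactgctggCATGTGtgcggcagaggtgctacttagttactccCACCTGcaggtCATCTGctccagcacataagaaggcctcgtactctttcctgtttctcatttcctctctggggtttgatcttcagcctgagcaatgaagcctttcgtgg
Rfpl4 held 3 E-boxes, Zar1 2, Bmp15 1 and Nlrp5 2 in each of its windows. No entry was present for Gdf9, Zp1, Zp2 or Mos. The E-box count of Zp3 lay between those of Oosp1 and Rfpl4, and a relation between E-boxes and the change in level was not tested.

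The genes are all annotated as protein-coding (GENCODE M21, GRCm38). Gdf9 is at chr11:53431023-53437904, Bmp15 at chrX:6314107-6320721, Zp1 at chr19:10914287-10920632 and Zp2 at chr7:120126772-120145291. Zp3 is at chr5:135980099-135988624, Nlrp5 at chr7:23385889-23441922, Oosp1 at chr19:11667460-11691150 and Mos at chr4:3870657-3872105. Zar1 is at chr5:72576806-72581254 and Rfpl4 at chr7:5109787-5116950. Only Nlrp5 overlaps another annotated gene, a miRNA on the same strand.

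Libraries of a group correlated at 0.933 to 0.987 in mouse and 0.976 to 0.98 in cattle, the lowest value being that of mutant Hdac1 at 36 h. The number of mouse genes that reached 1 FPKM differed by class of library. It was 10704 to 11179 in early libraries, 11284 to 12105 in late controls and 13412 to 14554 in late mutant or FK228 libraries. The part of this difference in the late contrasts was not tested. Counts are not known from FPKM; low values gave depths relative to each other of 0.668 to 1.309. The injected messages were seen: Hdac1 was 2707 to 7253 FPKM in libraries labelled with WT Hdac1 mRNA alone, 2952 to 4952 FPKM with mutant Hdac1 mRNA alone, 805 to 917 FPKM with the later injection of water or Kdm5b, and 47.7 to 92.2 FPKM in all other libraries. Hdac2 was 1462 to 2443 FPKM after Hdac2 mRNA and 16.3 to 72.7 FPKM elsewhere, and Kdm5b was 594 and 638 FPKM after its injection and 1.58 to 143 FPKM elsewhere. WT and mutant messages are not told apart by these values. Levels were not matched within the compared pairs. At 36 h Hdac1 was 4952 and 4612 FPKM with mutant and 2707 and 2960 FPKM with WT Hdac1 mRNA. At 24 h it was 4007 and 2952 FPKM with mutant and 7253 and 4519 FPKM with WT mRNA. Hdac2 was 2443 and 2292 FPKM with mutant and 1775 and 1462 FPKM with WT Hdac2 mRNA.

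Markers of cells that can cling to an embryo were summed in each library. Of 13 cumulus and granulosa markers, 7 passed the filter, and the list summed to 6.34 to 16.2 FPKM in early libraries, 33.6 to 71.0 FPKM in late controls and 14.7 to 31.8 FPKM in late mutant or FK228 libraries. In the late controls most of the sum was Amhr2, a receptor gene, at 40.8 and 48.7 FPKM in late WT Hdac1 embryos and 6.63 and 8.59 FPKM in late mutant embryos. Without Amhr2 the other 12 markers summed to 10.6 and 13.1 FPKM in early WT, 0.52 and 1.68 FPKM in late WT, 6.14 and 8.55 FPKM in early mutant and 8.09 and 12.6 FPKM in late mutant embryos. Fshr, the follicle-stimulating hormone receptor that defines granulosa cells, was at 0 in both libraries of 8 of the 9 late groups, and Inha, Inhba, Has2, Ptx3 and Cyp11a1 were also at 0 in late WT embryos. Sperm markers summed to at most 8.45 FPKM. The part of these cells in the results was not tested, and fewer cells of a type cannot be told apart from less RNA per cell in whole embryos.

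In embryos with WT Hdac1 mRNA the stock of these transcripts fell steeply between 24 h and 36 h. Together the 10 made up 1.40% and 1.42% of all FPKM at 24 h and 0.157% and 0.145% at 36 h. By limma with Benjamini-Hochberg adjustment over the 17336 genes, 8 fell, Zp3 rose and Mos did not pass the test; 28.1% of all genes tested were called lower and 28.8% higher. The median log2 change was -2.17 over the members and 0 over all genes. Libraries were enriched on oligo(dT) beads, so a message that lost its poly(A) tail and one that was degraded cannot be told apart.

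Rfpl4 and Zar1 lost nearly all of their message. Rfpl4 was 2280 and 2199 FPKM at 24 h and 44.4 and 38.8 FPKM at 36 h, so that 1.86% of the mean level was left, a log2 change of -5.72 ± 0.27 (SE; adjusted p = 9.48e-11). Zar1 fell from 208 and 180 FPKM to 4.77 and 4.24 FPKM, leaving 2.32%, a log2 change of -5.14 ± 0.24 (adjusted p = 8.52e-11). Rfpl4 was the most abundant of the list per length in early embryos and Zar1 was in the middle. Both kept similar shares, and a relation between early level and share left was not tested.

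The secreted factors and Oosp1 fell less far. Bmp15 was 584 and 486 FPKM at 24 h and 58.9 and 45.3 FPKM at 36 h, leaving 9.75%, a log2 change of -3.34 ± 0.26 (adjusted p = 2.26e-08). Gdf9, its partner in the follicle, was 231 and 258 FPKM and then 49.4 and 58.6 FPKM, leaving 22.1%, a log2 change of -2.16 ± 0.20 (adjusted p = 1.16e-07). Oosp1 was 1937 and 2013 FPKM and then 309 and 258 FPKM, leaving 14.3%, a log2 change of -2.80 ± 0.30 (adjusted p = 9.16e-07). With 283 ± 36.1 FPKM (SD, n = 2) Oosp1 was the most abundant of the 10 per length in late WT embryos. The times did not overlap for any of the 3 genes, but the share of all genes whose times did not overlap was not counted.

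Nlrp5 fell from 67.9 and 65.2 FPKM to 14.2 and 13.7 FPKM, leaving 20.9%, a log2 change of -2.18 ± 0.14 (adjusted p = 1.66e-09). Its times did not overlap either, again without a count over all genes. Mos was low throughout, at 2.46 and 1.86 FPKM at 24 h and 2.66 and 0.756 FPKM at 36 h. The late libraries lay on both sides of the early ones, and the change of -0.31 (95% interval -1.002 to 0.38) did not pass the test (adjusted p = 0.457). Without the first late WT library, the higher one, it did (-0.84, adjusted p = 0.0426).

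The zona transcripts, all low by 24 h, behaved differently from each other. Zp2 fell from 14.02 and 16.6 FPKM to 7.54 and 6.12 FPKM, a log2 change of -1.06 ± 0.23 (adjusted p = 0.000769). Zp1 fell from 13.7 and 11.4 FPKM to 6.77 and 7.23 FPKM, a log2 change of -0.76 ± 0.22 (adjusted p = 0.00683), a call that was lost without the first early WT library (adjusted p = 0.0645). Zp3 rose from 10.1 and 11.1 FPKM to 22.9 and 21.1 FPKM, which is 206% of its early level and a log2 change of 0.98 ± 0.19 (adjusted p = 0.000388). Every late library lay above every early one. The rise depended on the scaling: with libraries scaled to mitochondrial mRNAs it was 0.41 and no longer passed (adjusted p = 0.347), while that scaling moved the median of all genes from 0 to -0.17.

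**Figure D1:**
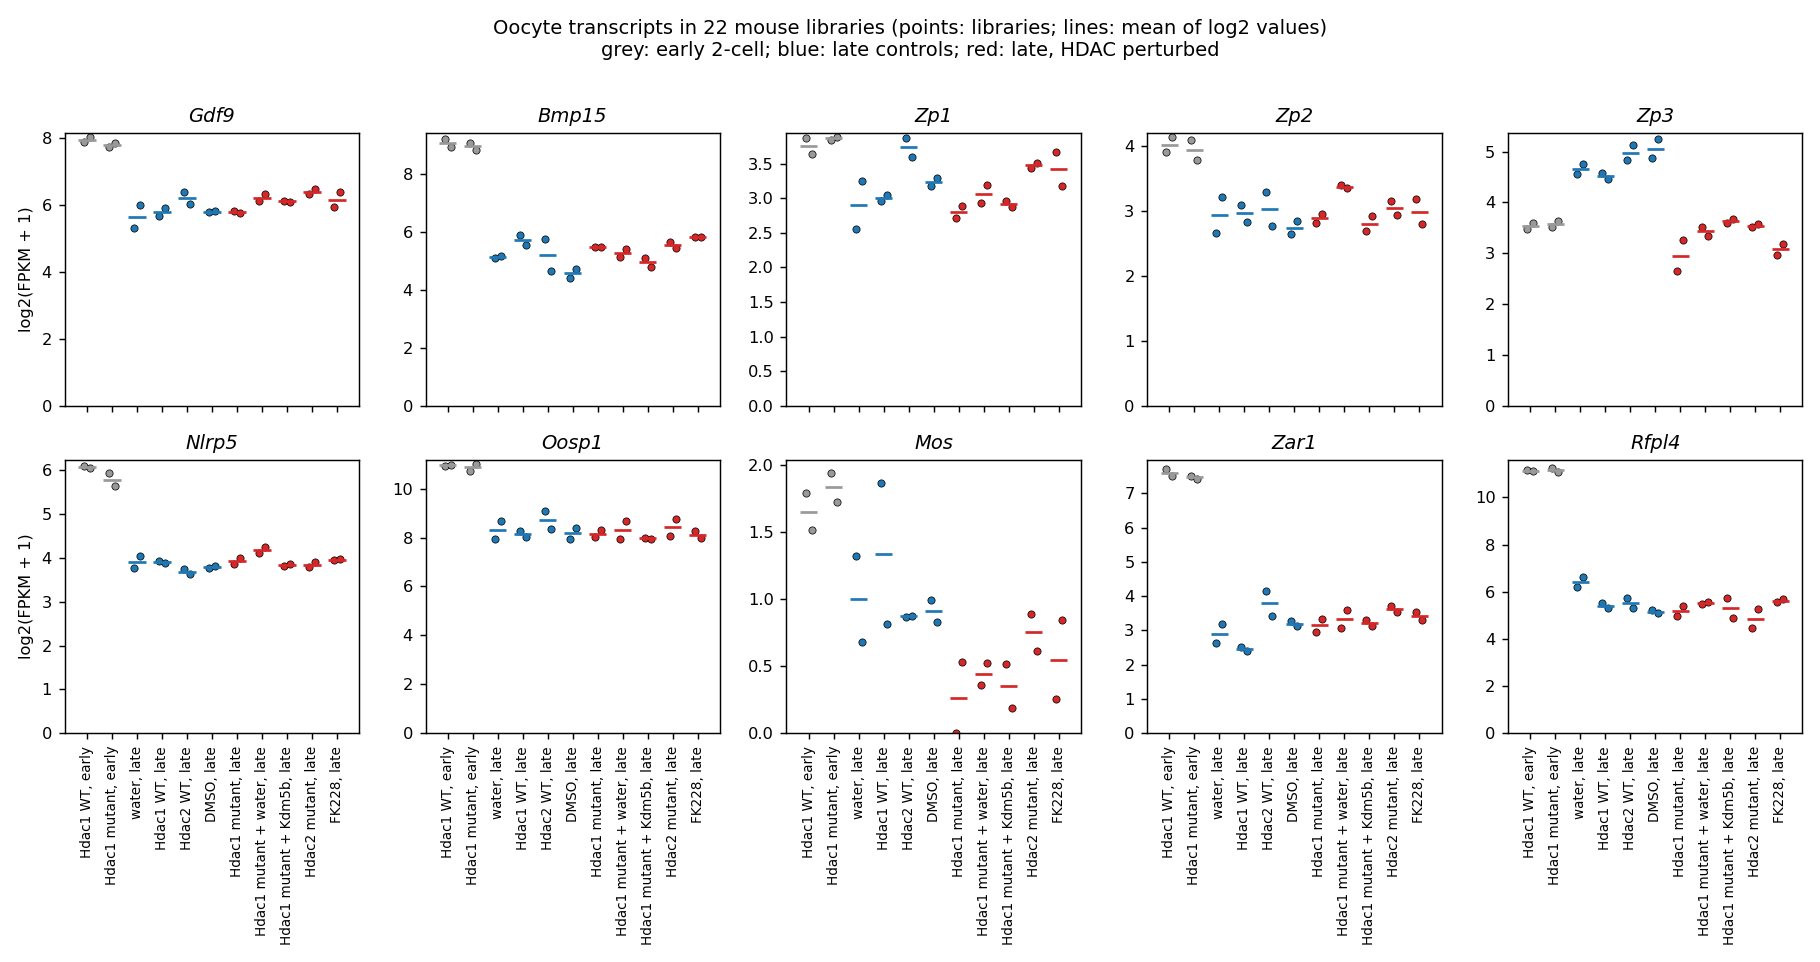
Level of each of the 10 oocyte transcripts in all 22 mouse libraries, as log2(FPKM + 1) on the vertical axis and by group on the horizontal axis; points are libraries, lines are means of the log2 values, grey is early 2-cell, blue late controls and red late embryos with mutant mRNA or FK228. All panels but those of Zp3, Mos and Zp1 show 4 early points above 18 late ones, while the Zp3 panel shows the late controls above all other libraries.

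In embryos with mutant Hdac1 mRNA the stock fell as well. Here 10 of 10 members were lower at 36 h than at 24 h, with 25.8% of all genes called lower and 40.6% higher. The median log2 change was -1.92 over the members and 0.37 over all genes. Rfpl4 went from 2426 and 2150 FPKM to 30.03 and 40.6 FPKM, leaving 1.54%, and Zar1 from 182 and 170 FPKM to 6.81 and 9.08 FPKM, leaving 4.52%. Their log2 changes were -5.99 ± 0.27 and -4.32 ± 0.24 (limma adjusted p = 1.44e-10 and 9.7e-10). As in WT embryos, these were the deepest falls of the list.

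The middle of the list fell in both, with Gdf9 and Nlrp5 changing places in the order. Mutant embryos retained 8.81% of Bmp15, 15.2% of Oosp1, 24.7% of Gdf9 and 26.4% of Nlrp5, against 9.75%, 14.3%, 22.1% and 20.9% in WT embryos. Between single libraries, the share ranged from 8.04% to 9.74% for Bmp15, 12.5% to 18.5% for Oosp1, 23.3% to 26.2% for Gdf9 and 22.7% to 30.9% for Nlrp5. The corresponding WT ranges were 7.76% to 12.1%, 12.8% to 15.9%, 19.1% to 25.3% and 20.1% to 21.7%. The ranges of mutant and WT embryos overlapped for the first 3 of these genes and not for Nlrp5. The share of all genes whose ranges did not overlap was not counted, so no difference is read from this. Nlrp5 fell from 59.9 and 48.7 FPKM to 13.6 and 15.1 FPKM in mutant embryos, a log2 change of -1.85 ± 0.14 (adjusted p = 1.47e-08), and its late values overlapped those of WT embryos.

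Zp2 retained 44.4% in mutant and 44.6% in WT embryos, and Zp1 44.0% and 55.8%. Mos was 2.84 and 2.31 FPKM at 24 h in mutant embryos and listed at 0 and at 0.446 FPKM at 36 h, a log2 change of -1.57 ± 0.32 (adjusted p = 0.000533). Zp3 was 10.5 and 11.4 FPKM and then 5.24 and 8.57 FPKM, a log2 change of -0.63 ± 0.19 (adjusted p = 0.00944). This is the smallest of the 10 falls. It was no longer called in a fit to the compared groups alone (adjusted p = 0.127), without the first late library (-0.32, adjusted p = 0.166) or without the second early library (adjusted p = 0.0547).

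**Figure D2:**
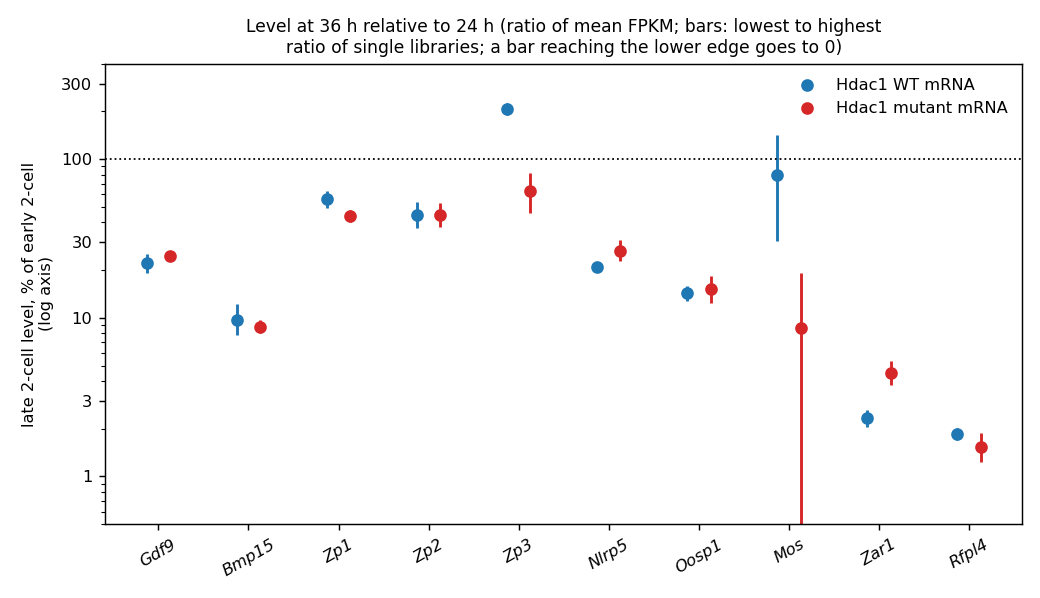
Level at 36 h as a percent of the level at 24 h (log axis) for each transcript in embryos with WT (blue) or mutant (red) Hdac1 mRNA; points are ratios of mean FPKM and bars run from the lowest to the highest ratio of single libraries. Blue and red lie close together for several genes, from 1.86% and 1.54% for Rfpl4 to 44.6% and 44.4% for Zp2. They stand furthest apart for Zp3 (206% and 63.0%) and Mos. The bars also do not overlap for Zar1 (WT 2.04% to 2.64%, mutant 3.75% to 5.34%). The same holds for Zp1 (49.6% to 63.2% and 40.2% to 47.9%) and Nlrp5 (20.1% to 21.7% and 22.7% to 30.9%). The share of all genes with such a separation was not counted.

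Whether the fall differed with mutant Hdac1 was tested directly, as the change in mutant minus the change in WT embryos. No member was retained more in mutant embryos at the threshold, where 21.2% of all genes were called higher and 15.2% lower by the same test. The median difference was -0.06 over the members and 0.18 over all genes. For Oosp1 the difference was 0.09 (95% interval -0.83 to 1.005), for Gdf9 0.17 (-0.42 to 0.75), for Bmp15 -0.13 (-0.92 to 0.66) and for Rfpl4 -0.27 (-1.09 to 0.55) on the log2 scale. Nlrp5 differed by 0.34 (-0.07 to 0.74; adjusted p = 0.193). These intervals still hold differences of up to 1.005 for Oosp1, so equal falls are not shown.

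Zar1 came nearest to retention, with a difference of 0.83 ± 0.34 (95% interval 0.10 to 1.56; adjusted p = 0.0705). It passed in a fit to these groups alone (adjusted p = 0.0369) and under no other alternative. Zp1 and Zp2 differed by -0.31 (-0.96 to 0.34) and 0.01 (-0.67 to 0.69). Zp3 changed by 1.61 ± 0.27 less on the log2 scale in mutant than in WT embryos (95% interval -2.19 to -1.03 for mutant minus WT; adjusted p = 0.000301). Mos passed by a narrow margin, at -1.26 ± 0.46 (adjusted p = 0.0427), a call lost without the filter on low values (adjusted p = 0.0754) and without the first late WT library (-0.73, adjusted p = 0.209).

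At 24 h no member differed between mutant and WT embryos by limma, and 0.231% of all genes were called higher and 0.329% lower. The members' log2 differences ran from -0.30 to 0.18. Nlrp5, at 59.9 and 48.7 FPKM against 67.9 and 65.2 FPKM, had an unadjusted p of 0.0449 and was the one member with an unadjusted p under 0.05. Over all genes 97 were called and 1057 had an unadjusted p under 0.05. The groups did not overlap for Nlrp5 or for Gdf9, which was also lower in the mutant libraries, but neither passed the test. The limma adjusted p was 0.775 for Nlrp5, and the interval for Gdf9 was -0.57 to 0.26. The share of all genes whose groups did not overlap at 24 h was not counted, so no difference is read from this separation. Intervals were as wide as -0.51 to 0.87 for Mos.

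Retention of the stock at 36 h was then compared in the 4 late contrasts of a mutant or inhibitor group with its own control. Mutant against WT Hdac1 had 1 member higher and 2 lower (30.5% and 21.6% of all genes), and mutant Hdac1 followed by water against water had 1 higher and 2 lower (34.5% and 18.1%). Mutant against WT Hdac2 had 0 higher and 2 lower (30.8% and 22.2%), and FK228 against DMSO had 1 higher and 1 lower (31% and 26.3%). Zp3 was the member called in every one of the 4, always lower. The member called higher was Zar1 with mutant Hdac1, Gdf9 in the contrast with water and Bmp15 with FK228. These calls depended on the scaling: with quantile normalization Gdf9 was called higher in all 4, and Bmp15 also for Hdac2.

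In late embryos with mutant Hdac1 mRNA, Gdf9 was 55.4 and 53.2 FPKM against 49.4 and 58.6 FPKM with WT mRNA, a log2 difference of 0.01 (95% interval -0.40 to 0.43). With quantile normalization that difference was 0.59 and passed (adjusted p = 0.0285). Oosp1 was 258 and 315 FPKM against 309 and 258 FPKM, a difference of 0.01 (-0.64 to 0.66), and Nlrp5 13.6 and 15.1 FPKM against 14.2 and 13.7 FPKM, a difference of 0.04 (-0.25 to 0.33). For these 3 transcripts the groups overlapped. Bmp15, Zp1, Zp2 and Rfpl4 differed by -0.24 to -0.08, with adjusted p from 0.468 to 0.805.

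Zar1 was 6.81 and 9.08 FPKM in mutant and 4.77 and 4.24 FPKM in WT Hdac1 embryos, a log2 difference of 0.69 ± 0.24 (adjusted p = 0.0251). The groups did not overlap, but late WT Hdac1 embryos held the lowest Zar1 of the 9 late groups. The other late controls had 5.22 and 8.04 FPKM with water, 8.64 and 7.71 FPKM with DMSO and 16.8 and 9.80 FPKM with WT Hdac2, so the mutant values lay inside the control range. The call was lost under quantile normalization (adjusted p = 0.111), with mitochondrial scaling (0.0951), in a fit to these groups alone (0.114) and without the second mutant library (0.173), the first WT library (0.0516) or the second WT library (0.105). Mos was listed at 0 and at 0.446 FPKM in mutant embryos against 2.66 and 0.756 FPKM, a difference of -1.08 ± 0.32 (adjusted p = 0.0111). In a fit to these groups alone the adjusted p was 0.176, without the first mutant library 0.102 and without the first WT library 0.192.

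When mutant Hdac1 embryos that were injected again with water were set against water-injected embryos, Gdf9 was higher and Rfpl4 lower. Gdf9 was 68.5 and 78.1 FPKM against 38.4 and 61.9 FPKM, a log2 difference of 0.58 ± 0.20 (adjusted p = 0.0216). It was lost with median-ratio scaling (0.34, adjusted p = 0.157), with mitochondrial scaling (0.14, adjusted p = 0.78), in a fit to these groups alone (adjusted p = 0.169), without the second mutant library (adjusted p = 0.125) and without the first water library (0.24, adjusted p = 0.341). Rfpl4 was 43.9 and 46.9 FPKM against 71.9 and 96.5 FPKM, a difference of -0.86 ± 0.27 (adjusted p = 0.0143). The water group held the most Rfpl4 of all 9 late groups, and the mutant values lay inside the 33.2 to 96.5 FPKM of the 8 control libraries. With quantile normalization the adjusted p was 0.124, without the second water library 0.118 and without the first mutant library 0.0713. No group without mutant Hdac1 mRNA was injected a second time, so the second injection and the mutant mRNA cannot be told apart in this contrast.

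Among Hdac2 embryos, Rfpl4 was 20.8 and 37.3 FPKM with mutant and 52.8 and 38.3 FPKM with WT mRNA, a log2 difference of -0.67 ± 0.27 that was at the edge of the threshold (adjusted p = 0.0491). Most alternatives lost it, among them quantile normalization (-0.29, adjusted p = 0.484), the fit without the first mutant library (-0.26, adjusted p = 0.501) and the fit without the first WT library (-0.44, adjusted p = 0.298). Gdf9 was 78.7 and 86.8 FPKM against 82.7 and 63.7 FPKM, a difference of 0.18 (95% interval -0.23 to 0.60) that passed with quantile normalization (0.83, adjusted p = 0.0037). Bmp15 was 49.3 and 42.5 FPKM against 53.3 and 24.0 FPKM. Its difference of 0.35 did not pass (adjusted p = 0.296), but without the first WT library, which was the higher, it did (0.91, adjusted p = 0.00229), as it did with quantile normalization (0.80, adjusted p = 0.0143). Oosp1 showed the same split of the WT libraries, at 545 and 321 FPKM, against 266 and 434 FPKM in mutant embryos.

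In FK228 embryos Bmp15 was higher. It was 55.7 and 55.9 FPKM with FK228 and 20.4 and 25.2 FPKM with DMSO, a log2 difference of 1.26 ± 0.26 (adjusted p = 0.00064) that kept its call under every alternative run. The DMSO group was the lowest of the 9 late groups for Bmp15, whose control libraries ran from 20.4 to 58.9 FPKM, and both FK228 values lay inside that range. At 24 h Bmp15 was 452 to 584 FPKM, so the FK228 level was still far below the early stock. Gdf9 was 59.5 and 81.4 FPKM against 53.6 and 55.1 FPKM, a difference of 0.35 (95% interval -0.06 to 0.77; adjusted p = 0.138). It passed with median-ratio scaling (adjusted p = 0.0332), quantile normalization (1.04, adjusted p = 0.000535) and without the first FK228 library (adjusted p = 0.0461). Rfpl4 was 45.7 and 50.9 FPKM against 36.3 and 33.2 FPKM and did not pass (0.46, adjusted p = 0.158), but did with quantile normalization (1.08, adjusted p = 0.0101) and in a fit to these groups alone (adjusted p = 0.0259). Oosp1, Nlrp5, Zar1, Zp1, Zp2 and Mos did not pass either, with log2 differences of -0.36 to 0.25, of which Nlrp5 (0.36, adjusted p = 0.0309) and Mos (-0.78, adjusted p = 0.041) passed with quantile normalization.

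**Figure D3:**
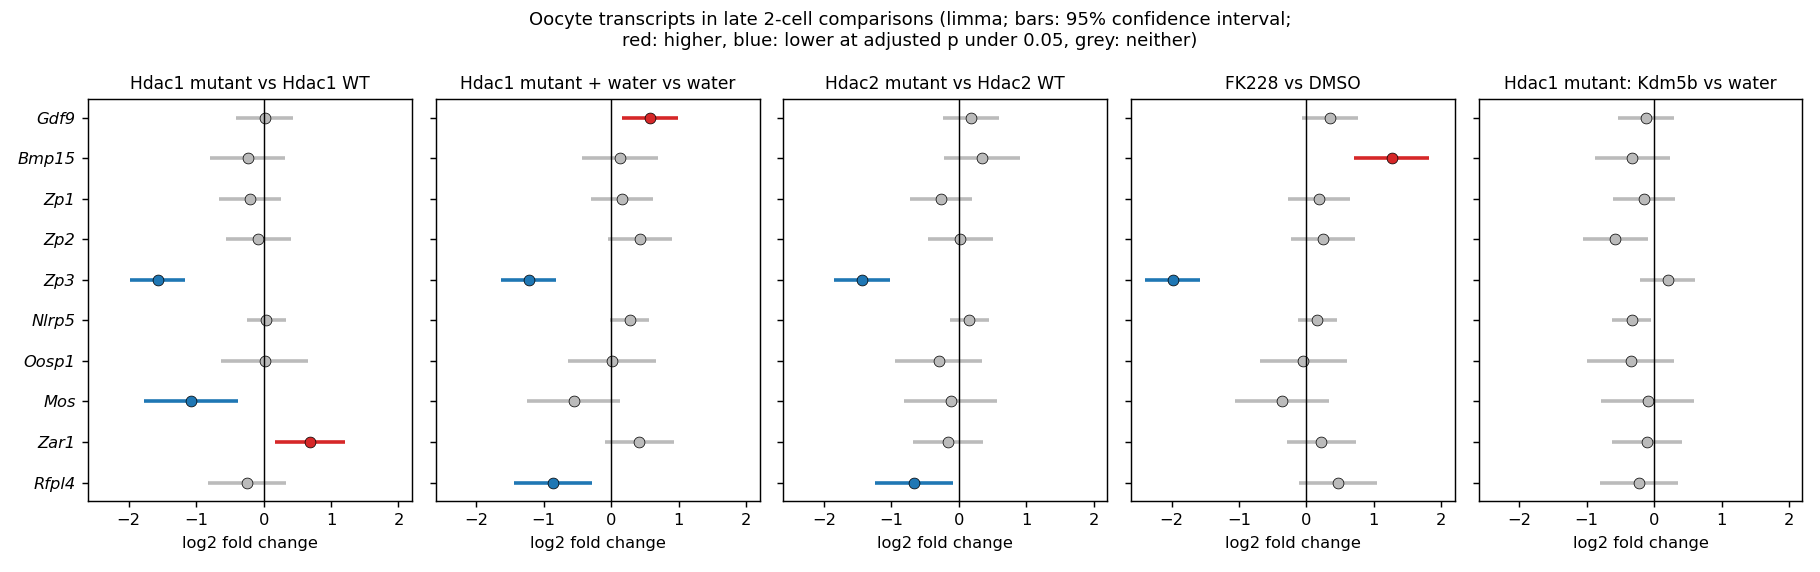
Log2 fold change (horizontal axis) of each transcript in the late 2-cell contrasts, 1 panel per contrast; bars are 95% confidence intervals from limma, red is higher, blue lower at an adjusted p under 0.05, and grey neither. Zp3 is blue in the 4 contrasts of a mutant or inhibitor group with its control, from -1.23 to -1.98, and grey in the Kdm5b panel.

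Zp3 was the transcript of the list that separated the late groups. The 8 late control libraries had 21.1 to 36.9 FPKM (median 26.8), the 10 late libraries with mutant mRNA or FK228 had 5.24 to 11.7 FPKM (median 9.79), and the 4 early libraries had 10.1 to 11.4 FPKM (median 10.8). The late mutant and FK228 libraries overlapped the early ones and none overlapped a late control. The share of all genes that separated the late libraries in this way was not counted. With mutant Hdac1 it was 5.24 and 8.57 FPKM against 22.9 and 21.1 FPKM, a log2 difference of -1.57 ± 0.19 (adjusted p = 5.91e-06). With mutant Hdac2 it was 10.4 and 10.9 FPKM against 27.5 and 33.9 FPKM, a difference of -1.43 ± 0.19 (adjusted p = 1.32e-05).

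FK228 gave 6.79 and 8.11 FPKM of Zp3 against 28.2 and 36.9 FPKM with DMSO, a log2 difference of -1.98 ± 0.19 (adjusted p = 3.62e-07). The second injection with water after mutant Hdac1 gave 10.5 and 9.17 FPKM against 22.5 and 26.1 FPKM with water alone, a difference of -1.23 ± 0.19 (adjusted p = 7.14e-05). These 4 contrasts use different control groups, and the call of Zp3 was kept under every alternative in each of them. Of the cumulus markers, Amhr2 was also highest in late controls, at 31.0 to 64.9 FPKM in late controls, 5.51 to 22.4 FPKM in late mutant or FK228 libraries and 0.134 to 3.12 FPKM in early ones. The 12 other markers were not, with a sum of 0.52 to 7.48 FPKM in late controls and 6.29 to 22.6 FPKM in late mutant or FK228 libraries. The part of cumulus cells in the Zp3 result was not tested.

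Kdm5b mRNA, given to mutant Hdac1 embryos at the early 2-cell stage, did not return Zp3 to control levels. Zp3 was 11.2 and 11.7 FPKM with Kdm5b and 10.5 and 9.17 FPKM with water, a log2 difference of 0.20 (95% interval -0.21 to 0.61; adjusted p = 0.688). None of the 10 members passed this test by limma; 0.415% of all genes were called higher and 0.629% lower, and 2586 genes had an unadjusted p under 0.05. Zp2, at 5.43 and 6.55 FPKM against 9.51 and 9.21 FPKM, had an unadjusted p of 0.0227 and Nlrp5, at 13.2 and 13.6 FPKM against 16.2 and 18.0 FPKM, one of 0.0275. For both, mutant embryos injected again with water had the highest mean of the 9 late groups.

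**Figure D4:**
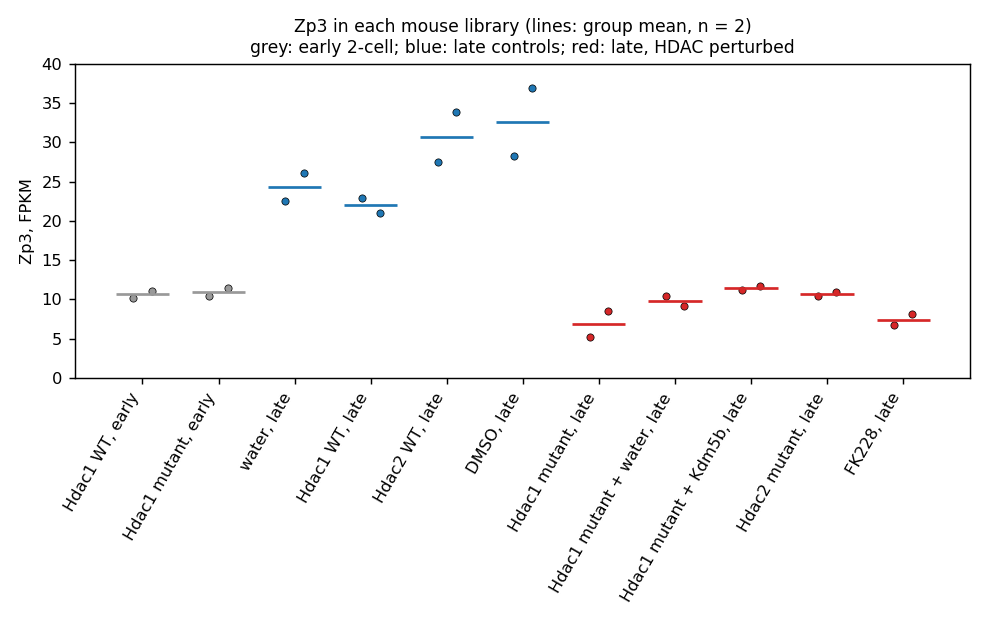
Zp3 level in FPKM (vertical axis, from 0) in each mouse library by group; points are libraries, lines group means of 2, grey is early 2-cell, blue late controls and red late embryos with mutant mRNA or FK228. The blue points lie between 21.1 and 36.9 FPKM, and all red and grey points lie at or below 11.7 FPKM.

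Across all 18 late libraries, Gdf9, Bmp15, Zp2, Nlrp5, Oosp1, Zar1 and Rfpl4 varied less between groups than they had fallen in WT embryos, and Zp1 and Mos varied more. The highest late group mean exceeded the lowest 1.44 times for Nlrp5, 1.64 for Zp2, 1.65 for Gdf9, 1.74 for Oosp1 and 2.07 for Zp1. The ratio was 2.45 for Bmp15, 2.90 for Rfpl4, 2.95 for Zar1, 4.72 for Zp3 and 7.66 for Mos, whose levels were near the low end of detection. No late library reached the early range of Gdf9, Bmp15, Nlrp5, Oosp1, Zar1, Zp2 or Rfpl4. The gap was smallest for Zp2, with at most 9.51 FPKM late and at least 12.8 FPKM early, and for Gdf9 these values were 86.8 and 212 FPKM.

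Over the 11 mouse group means, the level of a member correlated with the mean profile of the other members at r = 0.73 for Zp1, 0.82 for Mos, 0.93 for Zp2 and 0.95 to 0.99 for Gdf9, Bmp15, Nlrp5, Zar1, Rfpl4 and Oosp1, and at r = -0.22 for Zp3. Points share the step from early to late, which carries most of the variation, so the values describe that step. Among 8366 genes outside the lists, those most alike to the members' mean profile were Fam13c (r = 0.996), Pecr (0.995), Farsb (0.993), Ube2g1 (0.993), Zcchc8 (0.992) and Gyg (0.992). Fam13c was 50.0 FPKM in early WT, 48.4 in early mutant, 8.30 in late WT and 7.94 in late mutant embryos. Farsb, a subunit of phenylalanyl-tRNA synthetase, was 87.0, 91.0, 14.5 and 12.1 FPKM in the same order. Gyg, the glycogenin that primes glycogen, was 232, 221, 22.1 and 24.6 FPKM.

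Other transcripts of the oocyte, in lists drawn up by function, gave the wider setting. Of 19 other oocyte-restricted transcripts, 19 fell from 24 h to 36 h in WT embryos and 19 in mutant embryos, with median log2 changes of -2.95 and -2.80. Of all genes, 28.1% were called lower in WT and 25.8% in mutant embryos. Bcl2l10, a survival factor of the Bcl-2 family, went from 3611 ± 140 to 72.0 ± 0.40 FPKM (SD, n = 2) in WT embryos, and H1f8, the oocyte linker histone, from 579 ± 134 to 23.7 ± 5.79 FPKM. In late mutant against WT Hdac1 embryos 0 of 19 were higher and 1, Dppa3, was lower (194 ± 12.8 against 685 ± 53.1 FPKM; limma adjusted p = 2.01e-08). Dppa3, also called Stella, protects maternal methylation and is made by the embryo as well. Its log2 difference of -1.81 was like that of Zp3 in direction, and the median of the 19 was 0.02 against 0.17 over all genes. In that contrast 30.5% of all genes were called higher and 21.6% lower.

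The same 19 gave 0 higher and 4 lower in the Hdac2 contrast and 0 higher and 3 lower in the contrast with water, Dppa3 included each time. Of all genes, 30.8% were called higher and 22.2% lower for Hdac2, and 34.5% and 18.1% against water. With FK228, 6 of 19 were higher and 2 lower, and the median difference was 0.33 against 0.15 over all genes. Oog4 (9.22 ± 0.78 against 3.92 ± 0.001 FPKM) and Nlrp9c (34.7 ± 6.52 against 20.8 ± 4.84 FPKM) had the largest gains. With FK228, 31% of all genes tested were called higher and 26.3% lower.

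Partners of Nlrp5 in the subcortical maternal complex, such as Zbed3 and Ooep, fell in 7 of 7 cases in WT and in 7 of 7 in mutant embryos. The shares of all genes called lower were 28.1% and 25.8%. Zbed3, the most abundant, went from 10263 ± 905 to 406 ± 87.6 FPKM in WT and from 10521 ± 707 to 552 ± 0.08 FPKM in mutant embryos. It was higher at 36 h in mutant than in WT embryos (log2 difference 0.46 ± 0.18, adjusted p = 0.04) and with FK228 than with DMSO (1177 ± 276 against 577 ± 5.86 FPKM; adjusted p = 0.000149). It was lower in mutant embryos injected again with water than with water alone (468 ± 38.7 against 697 ± 53.5 FPKM; adjusted p = 0.0126), so its direction was not the same in each contrast. The difference in its fall between mutant and WT embryos did not pass, as for 7 of 7 genes of the list.

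The machinery that stores and clears maternal mRNA was itself divided. Of 19 such genes tested, 11 fell and 4 rose in WT embryos between 24 h and 36 h, against 28.1% and 28.8% of all genes. Btg4, the adaptor that brings the CCR4-NOT deadenylase to maternal mRNAs, fell from 2208 ± 67.8 to 222 ± 5.15 FPKM, and Pabpc1l, the oocyte's poly(A)-binding protein, from 88.4 ± 27.8 to 4.13 ± 1.52 FPKM. Ythdf2, a reader of methylated RNA that directs decay, rose from 13.1 ± 0.21 to 89.2 ± 6.88 FPKM, and Cnot1, the scaffold of CCR4-NOT, from 9.78 ± 0.009 to 52.5 ± 1.64 FPKM.

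In mutant embryos Btg4 and Pabpc1l fell as well, to 259 ± 20.5 and 6.37 ± 3.05 FPKM. Ythdf2 was 20.99 ± 1.91 against 89.2 ± 6.88 FPKM at 36 h in mutant and WT Hdac1 embryos, a log2 difference of -2.04 ± 0.13 (adjusted p = 1.22e-08). Cnot1 was 14.5 ± 1.14 against 52.5 ± 1.64 FPKM, a difference of -1.79 ± 0.15 (adjusted p = 1.57e-07). With FK228 they differed by -2.04 ± 0.13 and -1.91 ± 0.15 (adjusted p = 5.62e-09 and 4.53e-08), and in mutant Hdac2 embryos Cnot1 differed by -1.75 ± 0.15 (adjusted p = 1.66e-07). In the whole list 1 was higher and 5 lower for mutant Hdac1 (30.5% and 21.6% of all genes), and 1 and 6 for Hdac2 (30.8% and 22.2%). Against water 3 were higher and 6 lower (34.5% and 18.1% of all genes), and with FK228 6 and 7 (31% and 26.3%). The gene that was higher for mutant Hdac1 was Zfp36l2, an RNA-binding protein of AU-rich elements (17.8 ± 3.97 against 3.69 ± 1.71 FPKM; adjusted p = 3.95e-05).

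Transcription factors of the oocyte changed in both directions, as did all genes in WT embryos, with 28.1% called lower and 28.8% higher. In WT embryos 4 of 7 fell and 1 rose: Nobox went from 35.4 ± 4.37 to 2.94 ± 1.04 FPKM and Foxo3 from 176 ± 23.3 to 24.4 ± 2.56 FPKM, while Taf4b rose from 11.7 ± 0.24 to 36.2 ± 3.05 FPKM. Sohlh1, a helix-loop-helix factor that binds E-boxes, was higher in mutant than in WT Hdac2 embryos (8.50 ± 2.90 against 0.17 ± 0.07 FPKM; adjusted p = 3.87e-05). It was also higher with FK228 than with DMSO (8.51 ± 0.98 against 0.39 ± 0.13 FPKM; adjusted p = 6.84e-05). Foxo3 was higher with mutant than with WT Hdac1 (51.1 ± 6.02 against 24.4 ± 2.56 FPKM; adjusted p = 6.81e-05), and Taf4b lower (19.3 ± 0.15 against 36.2 ± 3.05 FPKM; adjusted p = 4.53e-05).

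Genes around Mos and of the GDF9 and BMP15 pathway mostly fell in WT embryos, where 28.1% of all genes were called lower and 28.8% higher. Of 16 genes of the Mos pathway and meiotic maturation, 12 fell and 1 rose in WT embryos, among them Aurkc, the meiotic Aurora kinase (137 ± 4.45 to 11.7 ± 3.05 FPKM), and Map2k1, the MAP kinase kinase under Mos (288 ± 25.4 to 29.7 ± 3.74 FPKM). In late mutant Hdac1 embryos 5 of 16 were higher and 4 lower than with WT mRNA, near the 30.5% and 21.6% of all genes. Cyclin Ccnb1 was 56.9 ± 7.35 against 202 ± 1.85 FPKM (adjusted p = 4.69e-08) and Cdc25b, the phosphatase that starts M phase, 25.9 ± 4.45 against 4.73 ± 0.67 FPKM (adjusted p = 7.26e-07). Of 10 receptors and partners of GDF9 and BMP15, 8 fell in WT embryos, led by Bmpr1b, a type I receptor (25.4 ± 2.75 to 5.39 ± 0.06 FPKM). Tgfbr1, the receptor that GDF9 uses, was higher with mutant than with WT Hdac1 (39.6 ± 8.52 against 8.13 ± 0.65 FPKM; adjusted p = 3.28e-07) and with FK228 than with DMSO (41.8 ± 2.70 against 12.3 ± 0.25 FPKM; adjusted p = 2.53e-06).

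Of 5 genes of the oocyte surface and fertilization, 4 fell and 1 rose in WT embryos, against 28.1% and 28.8% of all genes. Oosp3, a relative of Oosp1, went from 1033 ± 118 to 74.0 ± 18.5 FPKM and Izumo1r, the egg's receptor for sperm Izumo1, from 44.4 ± 6.86 to 2.42 ± 0.61 FPKM. Cd9, the tetraspanin needed for gamete fusion, rose from 7.90 ± 1.42 to 29.5 ± 2.88 FPKM. None of the 5 was called between late mutant and WT Hdac1 embryos, where 30.5% of all genes were called higher and 21.6% lower. In the early contrast and the Kdm5b contrast no gene of these lists of oocyte genes and partners was called, while 1 of the 7 cumulus and granulosa markers tested was lower in the early contrast (Inhba, -0.96, adjusted p = 0.0338).

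In cattle, 2 of the 7 transcripts, ZAR1 and ZP3, were higher with FK228 and 5 did not pass. The 7 together made up 0.225% and 0.268% of all FPKM with DMSO and 0.328% and 0.331% with FK228. For 7 of 7 both FK228 libraries lay above both DMSO libraries, as they did for 39.6% of all genes tested. The 2 of 7 called higher by limma, with 0 lower, stood against 22.2% of all genes called higher and 27.4% lower. The median log2 difference was 0.43 over the members and 0.06 over all genes.

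ZAR1 was 44.0 and 50.5 FPKM with FK228 against 31.2 and 29.96 FPKM with DMSO, a log2 difference of 0.61 ± 0.17 (adjusted p = 0.0163). ZP3 was 44.9 and 55.6 FPKM against 33.9 and 28.8 FPKM, a difference of 0.66 ± 0.18 (adjusted p = 0.0175), opposite in sign to that of mouse Zp3. The species were at different stages and in separate tables, and the difference between them was not tested. Leaving out the second FK228 library ended both calls (adjusted p = 0.0908 for ZP3 and 0.0764 for ZAR1), as did leaving out the second DMSO library (0.104 and 0.0763); without the first DMSO library ZAR1 had an adjusted p of 0.0624.

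ZP2 was 65.7 and 96.4 FPKM against 55.4 and 57.2 FPKM, a log2 difference of 0.49 (95% interval 0.02 to 0.96; adjusted p = 0.0755). GDF9 was 102 and 90.6 FPKM against 60.8 and 85.2 FPKM (0.42, -0.04 to 0.87), and NLRP5 19.5 and 25.3 FPKM against 16.8 and 15.7 FPKM (0.43, -0.02 to 0.87). BMP15, the most abundant of the 7 per length, was 556 and 560 FPKM against 441 and 508 FPKM (0.24, -0.13 to 0.60). MOS was 192.5 and 210 FPKM against 135 and 192.4 FPKM (0.31, -0.14 to 0.76). The adjusted p of these 5 ran from 0.0755 for ZP2 to 0.241 for BMP15.

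**Figure D5:**
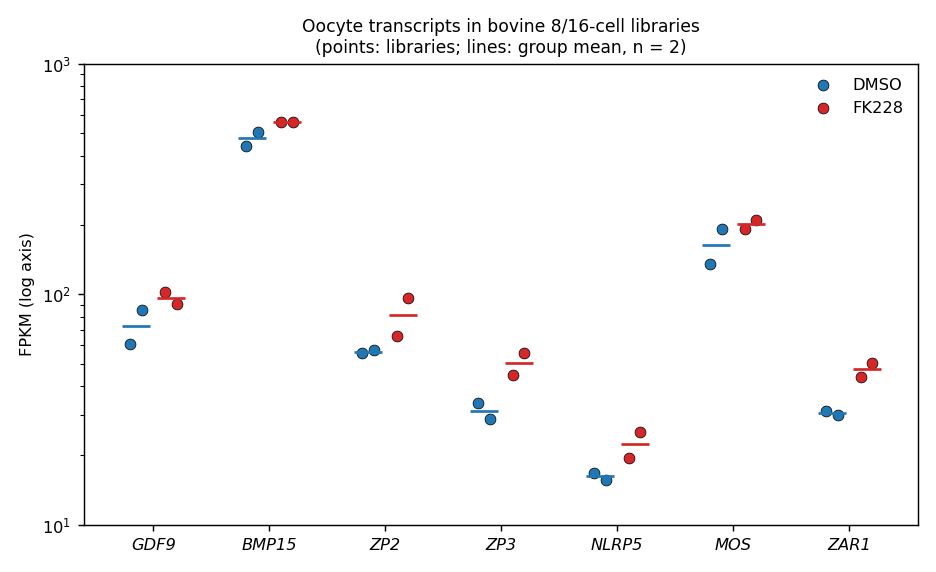
Level of the 7 oocyte transcripts found in cattle, in FPKM on a log axis, in bovine 8/16-cell libraries with DMSO (blue) or 50 nM FK228 (red); points are libraries and lines group means of 2. For each gene both red points lie above both blue ones, by the least for MOS and GDF9.

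Some related bovine lists held further genes that were higher with FK228, where 22.2% of all genes tested were called higher and 27.4% lower. H1FOO, the oocyte linker histone, was 319 ± 17.8 against 156 ± 0.82 FPKM (log2 difference 1.03 ± 0.15, limma adjusted p = 0.00086), and NPM2, the nucleoplasmin of the egg, 36.5 ± 9.81 against 20.6 ± 7.61 FPKM (adjusted p = 0.0389). These were 2 of 5 other oocyte transcripts tested, with 0 lower. PADI6 (59.7 ± 0.38 against 40.1 ± 2.34 FPKM; adjusted p = 0.018) and TLE6 (39.9 ± 5.11 against 27.4 ± 2.85 FPKM; adjusted p = 0.0413) were 2 of 4 partners of NLRP5, with 0 lower. The oocyte surface list had 2 of 4 higher and 0 lower, and the Mos pathway list 6 of 16 higher and 2 lower. Of 7 oocyte transcription factors, 1 was higher and 0 lower, with a median log2 difference of -0.09. Of 10 receptors and partners of GDF9 and BMP15, 0 were higher and 1, FURIN, was lower.

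In the bovine storage and clearance list 2 of 19 were higher and 8 lower, against 22.2% and 27.4% of all genes. CPEB1, which binds the CPE, was 103 ± 1.74 against 70.8 ± 4.93 FPKM (adjusted p = 0.0207), and ZAR1L, a relative of ZAR1, 244 ± 38.6 against 163 ± 22.9 FPKM (adjusted p = 0.0299). YTHDF2 was 27.9 ± 8.64 against 135 ± 13.7 FPKM, a log2 difference of -2.27 ± 0.22 (adjusted p = 0.000132), the same direction as in mouse. ZFP36L2 was 6.70 ± 0.18 against 30.8 ± 2.76 FPKM (adjusted p = 9.4e-05), whereas mouse Zfp36l2 was higher with FK228 (31.7 ± 3.31 against 17.7 ± 2.71 FPKM; adjusted p = 0.0324). Bovine cumulus and granulosa markers, 12 genes, summed to 45.6 and 57.2 FPKM with DMSO and 55.2 and 66.6 FPKM with FK228. Of the 6 tested, STAR was called higher by limma (39.2 ± 7.15 against 21.3 ± 2.33 FPKM, adjusted p = 0.00737). CYP11A1 was called lower (0.55 ± 0.46 against 12.1 ± 7.24 FPKM, adjusted p = 0.000473). The other 4 did not pass, HAS2 (12.8 ± 0.25 against 9.62 ± 0.89 FPKM) among them. AMHR2 was at 0 in 1 FK228 library and CYP19A1, the granulosa aromatase, at 0 in 1 DMSO library. FSHR had no row under that symbol, and the markers' part in the bovine result was not tested.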

How the data were processed

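Gene-level FPKM, as the authors deposited them for each library, were the input, with mouse and cattle in separate tables. The submitters' processing notes name Trimmomatic, HISAT2, featureCounts, Cufflinks and DESeq2 and the builds GRCm38 and ARS-UCD1.2; which tool made which step, and its version, is not stated there. Per the labels' protocols, RNA was enriched on oligo(dT) beads; no strand step is described. FPKM depend on each library's total, so counting intervals are not available and depth is only relative.

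Genes with at least 1 FPKM in at least 2 libraries were tested as log2(FPKM + 1), which understates changes of low genes. A limma 3.58.1 model (R 4.3.3) with 1 coefficient for each group covered the 22 mouse libraries and left 11 residual degrees of freedom. A second model covered the 4 bovine libraries and left 2. Both used a variance trend. Two-sided p-values were adjusted after Benjamini and Hochberg over all genes tested in a comparison, and an adjusted p under 0.05 was a call. There were 10 comparisons. Intervals are 95% intervals from limma. Several comparisons share late or early libraries and are not independent.

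The members, lists and tests were chosen with earlier results of these data known. Every member is named; from each list up to 2 called genes each way with the largest change and a mean of at least 5 FPKM were eligible, and some are left out for length. The 6 genes most alike had the highest Pearson correlation with the members' mean profile over 11 group means. H1f8 and 2 further list genes were matched by synonym, and Pabpn1l had no mouse row. Of 27988 mouse symbols, 27557 matched GENCODE M21. Tables and plots were made in Python 3.11.15 (pandas 2.3.3, matplotlib 3.10.9). All per-sample columns were assigned.

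Alternatives were a pseudocount of 0.1 FPKM, no filter, a filter of 5 FPKM, median-ratio scaling, quantile normalization, scaling to mitochondrial mRNAs (mouse only), a fit to the compared groups alone (mouse only), a replicate block, and leaving out each library.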

Additional observations from a re-analysis of the deposited data

Results flagged for a closer look

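Zp3 changed differently from 24 h to 36 h in embryos with mutant and with WT Hdac1 mRNA: the difference of the log2 changes, mutant minus WT, was -1.61 by limma (adjusted p = 0.000301). Both WT libraries at 36 h lay above both at 24 h, and both mutant libraries at 36 h lay below both at 24 h.

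For Mos the same difference was -1.258 (adjusted p = 0.0427) at levels of 0 to 2.84 FPKM. It was lost in 3 of the other processing settings and without 6 of the 8 libraries left out in turn.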

How the results depend on the processing

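Of 1181 values of members under alternatives, 1114 kept their side of the threshold, 46 kept their direction and lost the call, and 21 gained one. With a call in either fit, 0 values reversed. Values called in neither fit were counted among the 1114 whether or not their direction changed. The falls of Rfpl4, Zar1, Bmp15, Oosp1, Nlrp5, Gdf9 and Zp2 in WT and in mutant embryos, and the lower Zp3 of the late contrasts, kept their calls under every alternative run. With mitochondrial scaling 0 members rose in WT embryos, 0 were higher with mutant than with WT Hdac1 and 0 with mutant Hdac1 and water than with water, 1 was lower in the difference of changes and 1 for Hdac2, and the genes called were 3977 for the difference (6317 otherwise), 38 for early mutant against WT Hdac1 (97 otherwise) and 5 for Kdm5b (181 otherwise). In fits to the compared groups alone, with 2 residual degrees of freedom for a pair of groups as in cattle, late Hdac1 had 0 members higher, 1 lower and 5304 genes called (9027 otherwise), early Hdac1 0 genes (1495 with an unadjusted p under 0.05), the contrast with water 0 members higher, Kdm5b 0 genes (2776 unadjusted), Hdac2 1 member lower, FK228 2 higher, and the difference of changes 1 higher and 1 lower. A pseudocount of 0.1 FPKM gave 300 genes for early Hdac1, 12 for Kdm5b and 1 member lower for Hdac2. Median-ratio scaling gave 0 members higher against water, 84 genes for Kdm5b, 1 member lower for Hdac2 and 2 higher for FK228. Quantile normalization gave 108 genes for Kdm5b, 2 members higher and 1 lower for Hdac2, 1 higher for late Hdac1 (Gdf9 in place of Zar1), 4 higher and 2 lower for FK228 and 5 higher in cattle. Without the filter, Hdac2 and the difference of changes each had 1 member lower and cattle 1 higher, and a filter of 5 FPKM, which drops Mos, left 1 lower for late Hdac1 and 1 for the difference. The cause of these shifts was not tested.

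Scaling moved the median of all genes and the share of calls that were higher: mitochondrial scaling from 50.6% to 37.3% for WT late against early, from 61.1% to 49.2% for mutant late against early and from 65.5% to 51.1% against water; quantile normalization from 61.1% to 47.6%, from 58.5% to 48% for late Hdac1, from 65.5% to 47.7% against water and from 58.3% to 48.9% for the difference of changes. With quantile normalization the median of all genes was -0.02 in place of 0.37 for mutant late against early. For early Hdac1 the share went from 41.2% to 51.7% (quantile) and 57.9% (mitochondrial), and for Kdm5b from 39.8% to 23.8% (median-ratio) and 80% (mitochondrial). The bovine values list no mitochondrial mRNAs under the symbols used, so that scaling was not run there.

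Leaving out each library in turn gave, in late Hdac1, 0 to 1 members higher and 1 to 2 lower; against water, 0 to 3 higher and 1 to 2 lower; for Hdac2, 0 to 1 higher and 1 to 2 lower; for FK228, 1 to 2 higher; for the difference of changes, 1 to 2 lower; and in cattle, 0 to 3 higher. Genes called were 27 to 98 for early Hdac1, lowest without the second early WT library, and 12 to 131 for Kdm5b, lowest without the second Kdm5b library or without the first of mutant Hdac1 and water. A lone library was then taken to vary like the other groups.

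Replicate numbers are shared by the labels without a stated pairing. Deviations of same-numbered mouse libraries correlated at -0.0893 to 0.175 over 55 pairs of groups (38 above 0), and at 0.233 in the one bovine pair, so the numbers were not taken to pair libraries. With a replicate block, Rfpl4 in the Hdac2 contrast had an adjusted p of 0.0566, leaving 1 member lower, and bovine ZP2 one of 0.0264.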

Other observations

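Libraries of a late group could differ for the whole list at once. The second water library was higher than the first for 9 of 10 members, with a median log2 difference of 0.48 against 0.02 over all genes tested. With WT Hdac2 mRNA the first library was higher for 8 of 10 members (median of second minus first -0.41) and for 19 of 19 other oocyte-restricted transcripts (median -0.54), while the median over all genes was 0.004. In the other mouse groups the members' median difference between libraries ran from -0.16 to 0.24. The WT Hdac2 pair is the one in which Bmp15 was 53.3 and 24.0 FPKM, Oosp1 545 and 321 FPKM and Zar1 16.8 and 9.80 FPKM.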
